A study of Homo sapiens and Mus musculus with 21 samples.

Results

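The genes described here are 39 genes of DNA replication and of the passage from G1 into S phase. They were chosen by name: MCM2 to MCM7, MCM10, CDC6, CDC45, CDT1, GINS1 to GINS4, ORC1, ORC6, PCNA, RFC2 to RFC5, POLA1, POLA2, PRIM1, POLE, POLE2, POLD1, POLD3, FEN1, LIG1, RRM1, RRM2, TYMS, DUT, CCNE1, CCNE2, E2F1, E2F2 and UHRF1. All 39 were found among the 60674 genes of each human table, and all 39 title-case orthologs among the 41214 genes of the mouse table. The rule that picks them uses names alone, though the list was drawn up with earlier results of these data known. All 39 passed the filter on low counts in each table.

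Poly-A RNA was sequenced from mesothelioma cells, a tumour of the lining of the lung. Of the 21 libraries, 8 came from human lines with DMSO (the solvent) or GSK126, an inhibitor of the histone methyltransferase EZH2. H2810 is labelled wildtype and H2731 mutated for BAP1, a nuclear deubiquitinase and tumour suppressor, and each line and treatment had 2 libraries. Another 8 came from H2810 and MSTO-211H carrying a hairpin RNA against BAP1 (shBAP1) or a random hairpin, with 2 libraries for each line and hairpin. The BAP1 genotype of MSTO-211H is not in the labels, nor are the dose and time of GSK126 or the number of hairpins. The remaining 5 libraries were mouse mesothelioma cells: 3 of BNC cells (Bap1-/-;Nf2-/-;Cdkn2ab-/-) and 2 of NC cells (Nf2-/-;Cdkn2ab-/-), so both mouse groups carried the Nf2 and Cdkn2ab losses. Each BAP1 state in the drug experiment is 1 line, so a difference between H2731 and H2810 cannot be told apart from any other difference between these lines. The labels do not say that libraries of a group came from separate cultures, so the p-values measure the spread between these libraries, which may be technical.

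Replication begins when the origin recognition complex, CDC6 and CDT1 load the ring of MCM2 to MCM7 onto DNA in G1. In S phase CDC45 and the GINS complex turn this ring into the working helicase, primase and DNA polymerase alpha start each strand, and the polymerases delta and epsilon extend it on the sliding clamp PCNA. E2F transcription factors switch on many of these genes when cyclin-bound kinases, that of cyclin E among them, inactivate the retinoblastoma protein. The RNA of these genes is therefore widely read as a sign of cells near or in S phase.

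A DNA motif that E2F factors bind is common near the start sites of these genes. The sequences are shown as a description, and a link between the motif and the changes described later was not tested. RefSeq windows on GRCh38.p14, running from 250 bases before to 50 bases after a start site, were found for 34 of the 39 genes (46 windows, as some genes have several). MCM4, MCM5, GINS4, POLD3 and CCNE2 were not matched. The octamers searched, on both strands, were TTTCGCGC, TTTGGCGC, TTTCCCGC and TTTGCCGC, and matches can overlap one another. At least 1 of them was in a window of 21 of the 34 genes (61.8%), against 1090 of all 27305 genes with windows (3.99%). The hexamers TTTGAA and TTCGAA, letters found in many promoters of mitosis genes, were in 3 of the 34 genes (8.82%) against 19.5% of all genes. A match of letters is a description and shows no binding. Below are 30-base stretches of 7 genes that rose with shBAP1 in both lines, with the octamer in capitals, each read 5′ to 3′ on the strand of the gene.
MCM2 (replicative helicase), chr3:127598402-127598431, plus strand: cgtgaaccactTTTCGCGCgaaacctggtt
MCM3 (replicative helicase), chr6:52284728-52284757, minus strand: agttcggaagtTTTCGCGCcggggtggagt
MCM7 (replicative helicase), chr7:100101388-100101417, minus strand: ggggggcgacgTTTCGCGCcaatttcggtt
CDC6 (helicase loader), chr17:40287875-40287904, plus strand: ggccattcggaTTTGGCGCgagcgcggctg
PCNA (sliding clamp), chr20:5126663-5126692, minus strand: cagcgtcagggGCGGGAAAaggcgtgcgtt
E2F1 (transcription factor), chr20:33686387-33686416, minus strand: ggcaaaaaggaTTTGGCGCgtaaaagtggc
UHRF1 (hemimethylated DNA reader), chr19:4909476-4909505, plus strand: gccgagttttcGCGGGAAAaaaatcagagc
In PCNA and UHRF1 the capitals are the octamer TTTCCCGC read on the opposite strand. The octamers in capitals of MCM3, MCM7 and E2F1 began 4, 9 and 20 bases before the start site on this count. That of MCM2 began at the base numbered 3 of the transcript, and an opposite-strand match overlaps it from the base numbered 7. Further octamers of MCM3, MCM7, E2F1 and UHRF1 are not marked. MCM6 held the same 12 letters in 2 places, beginning at -152 and -90 from its start site and each made of 2 overlapping octamers. The stretch of 94 bases that holds both is printed here.
MCM6 (replicative helicase), chr2:135876512-135876605, minus strand: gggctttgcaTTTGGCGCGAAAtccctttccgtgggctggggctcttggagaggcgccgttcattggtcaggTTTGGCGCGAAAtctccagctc
Of the 24 genes with a window that rose with shBAP1 in both lines, 16 held an octamer, and of the other 10 genes 5 did. No octamer was found for MCM10, CDC45, ORC1, ORC6, RFC2, POLD1, FEN1 and RRM1, which also rose in both lines. Of the 4 genes that fell with shBAP1 in either line, GINS1 held an octamer, and none was found in the windows of PRIM1, RRM2 and CCNE1. GINS1 fell in MSTO-211H and rose in H2810, and CCNE1 fell in H2810 and rose in MSTO-211H.

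Library totals ran from 13693927 to 23217215 counts. The lowest count of any of the 39 genes in a human library was 40 (CCNE2) and in a mouse library 109 (E2f2), so none of the genes was limited to a handful of reads. BAP1 RNA changed by -2.79 ± 0.13 (log2 fold change ± SE) with shBAP1 in H2810 and by -2.61 ± 0.13 in MSTO-211H, in the direction of the labels, and differed by -1.07 ± 0.04 between H2731 and H2810 under DMSO. In the mouse, Bap1 was still read in BNC cells at 612 to 1004 counts. This was 30.5 to 44.1 CPM (counts scaled to the effective library size), against 60.2 and 62.0 CPM in NC cells. The log2 fold change was -0.76 ± 0.23 (edgeR adjusted p = 0.620). The labels do not say which part of the gene is deleted, so this does not check the genotype. Leukocyte markers summed to at most 8.26 CPM in any human library, with CD3E at 0 in every human group. Mesothelial markers summed to between 1740 and 11348 CPM in the human libraries. In the mouse they summed to 268 to 1317 CPM in BNC and 1442 to 2724 CPM in NC cells, with Calb2 at 0. Of the 10 tested between these mouse groups none was called, though 9 were lower in BNC. Fibroblast markers were high in H2810 (7643 to 10853 CPM) and lower in MSTO-211H (1037 to 1274) and H2731 (303 to 408). Endothelial markers summed to 23.8 to 95.2 CPM in the human libraries. Shifts of these markers with shBAP1 and with GSK126 are given beside the results, and their part in the results was not tested.

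Within a library the 39 genes spanned a wide range of levels. Set per transcript length as TPM (length-scaled shares of the library), the highest group mean belonged to PCNA in every H2810 group (211 TPM with DMSO) and to MCM7 in H2731 (496 with DMSO) and MSTO-211H (309 with the random hairpin). TYMS, the enzyme that makes thymidylate, was among the highest 3 in every human group. POLA2, the regulatory subunit of polymerase alpha, was lowest in H2810 with DMSO (3.11 TPM) and in MSTO-211H with the random hairpin (1.87 TPM). The MCM2 to MCM7 ring holds 1 copy of each subunit, but the RNA of its highest member was 3.58 to 10.6 times that of its lowest in the human groups and 1.75 to 1.77 times in the mouse groups. These ratios depend on which transcript length is taken for each gene.

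The first question was how these genes changed with the hairpin against BAP1. Whether the changes came from the loss of BAP1 or from another effect of the hairpin was not tested. In H2810 with shBAP1, 33 of the 39 genes rose, 3 fell and 3 did not pass the test (edgeR quasi-likelihood test, adjusted p under 0.05 over 15872 genes). Of all genes tested 45.8% were called, 22.5% higher and 23.3% lower. The median log2 fold change of the 39 genes was 0.48, against -0.03 for all genes. As bulk RNA, these levels do not tell more cells in S phase from more RNA per cell. Together the 39 genes took up 0.185% and 0.193% of counts in the random hairpin libraries and 0.262% and 0.271% in the shBAP1 libraries. Beside this, 6 of 8 fibroblast markers fell and 1 rose (summed 10256 to 10853 CPM in the controls, 7643 to 8560 with shBAP1). Of 11 mesothelial markers 5 rose and 1 fell (summed 1758 to 1811 CPM, then 1740 to 1751), and of 4 endothelial markers 1 rose and 1 fell.

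All 10 origin licensing genes rose in H2810, with a median log2 fold change of 0.66. MCM2 (ENSG00000073111, 3:127598410-127622436) stood at 49.9 and 53.3 CPM in the random hairpin libraries and at 95.6 and 100 CPM in the shBAP1 libraries. Both shBAP1 libraries lay well above both controls, a log2 fold change of 0.92 ± 0.05 (adjusted p = 2.63e-07). The other 5 MCM subunits rose by 0.60 to 0.74 on the log2 scale, CDC6 by 0.68, ORC1 by 0.69 and ORC6 by 0.68. CDT1, the licensing factor that is destroyed in S phase, rose least (0.35 ± 0.07).

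All 6 helicase activation genes also rose, led by GINS2, a subunit of the GINS complex. It had 13.9 and 13.7 CPM with the random hairpin and 25.4 and 23.7 CPM with shBAP1 (log2 fold change 0.83 ± 0.07, adjusted p = 5.49e-06). MCM10, which helps to fire the loaded helicase, rose by 0.66 ± 0.06, while GINS3 and GINS1 rose by 0.25 and 0.29. The call of GINS3 was lost without random hairpin replicate 1 or shBAP1 replicate 2, as was that of POLD3 (0.17 ± 0.06), a polymerase delta subunit, which was also lost without shBAP1 replicate 1.

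Of the 7 polymerase and primase genes 6 rose, with POLA1, the catalytic subunit of polymerase alpha, in front. POLA1 stood at 38.8 and 35.0 CPM in the controls and 58.3 and 54.4 CPM with shBAP1 (0.61 ± 0.08, adjusted p = 6.56e-05). PRIM1, the catalytic primase subunit that works in the same complex, went the other way, from 12.7 and 13.7 CPM to 10.3 and 11.4 CPM. Its fall of 0.28 ± 0.10 on the log2 scale (adjusted p = 0.0358) was small, and the call was lost under 7 of 11 alternatives, among them RLE scaling and leaving out either random hairpin library or shBAP1 replicate 1.

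The clamp and all 4 clamp loader subunits measured rose. RFC2 went from 39.1 and 36.5 CPM to 73.1 and 71.3 CPM, a log2 fold change of 0.93 ± 0.06 (adjusted p = 3.19e-07), and PCNA from 111 and 121 CPM to 166 and 165 CPM (0.51 ± 0.06). The flap nuclease FEN1 and the ligase LIG1, which join Okazaki fragments on the lagging strand, rose by 0.65 ± 0.07 and 0.59 ± 0.06.

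Among the nucleotide supply genes the 2 subunits of ribonucleotide reductase moved apart in H2810. RRM1, the large subunit, rose from 77.4 and 81.4 CPM to 108 and 105 CPM (0.42 ± 0.05, adjusted p = 3.99e-05). RRM2, the small subunit whose level limits the enzyme outside S phase, fell from 134 and 141 CPM to 120 and 119 CPM (-0.20 ± 0.05, adjusted p = 0.00574). No shBAP1 library reached the lower control in RRM2, but the fall was small and its call was lost without random hairpin replicate 2 and with no filter on low counts.

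The regulators split more widely. E2F1 (ENSG00000101412, 20:33675477-33686385) rose from 28.2 and 25.9 CPM to 41.9 and 44.8 CPM (0.68 ± 0.07, adjusted p = 1.99e-05). CCNE1 (ENSG00000105173, 19:29811991-29824312), the gene of cyclin E1, fell from 6.01 and 6.47 CPM to 2.95 and 3.74 CPM, 1.87-fold lower (-0.90 ± 0.17, adjusted p = 0.00131). CCNE2 and E2F2 did not pass the test (-0.18 ± 0.16 and 0.23 ± 0.10). UHRF1 (ENSG00000276043, 19:4903080-4962154), which brings the maintenance DNA methyltransferase to newly copied DNA, had the highest fold change of the 39 genes. It stood at 14.6 and 14.2 CPM in the controls and 32.9 and 32.5 CPM with shBAP1, 2.27-fold higher (1.18 ± 0.07, adjusted p = 4.15e-07).

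**Figure D1:**
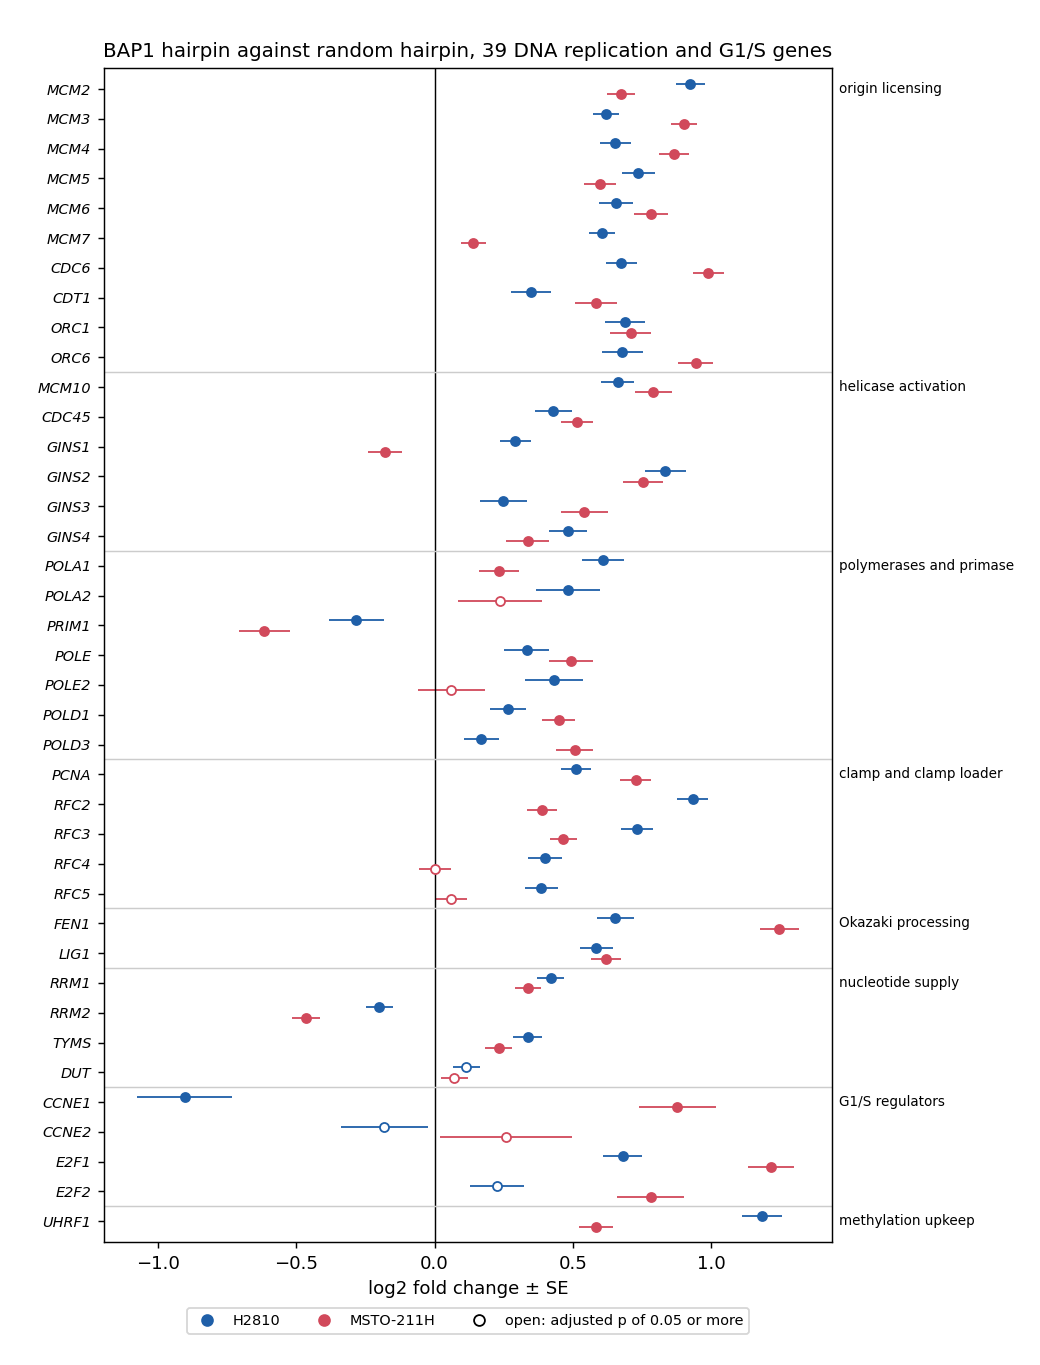
Log2 fold change of shBAP1 against the random hairpin (x axis, log2 units) for each of the 39 genes (y axis, grouped by role) in H2810 (blue) and MSTO-211H (red). Points are edgeR estimates from 2 libraries a group, bars are ± 1 SE, and open points did not pass an adjusted p of 0.05. Most points lie between 0 and 1.25, PRIM1 and RRM2 lie left of 0 in both lines, and CCNE1 lies at -0.90 in H2810 and 0.88 in MSTO-211H.

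In MSTO-211H, shBAP1 was followed by 30 rises and 3 falls among the 39 genes, with 6 not passing the test. Over all 15872 genes 46.2% were called, 21.7% higher and 24.5% lower. The median of the 39 genes was 0.51 against -0.02 for all genes. Their share of counts was 0.241% and 0.233% with the random hairpin and 0.321% and 0.322% with shBAP1. Mesothelial markers moved too: 6 of 11 rose and 2 fell, with CALB2 at 2.23 ± 0.10 and UPK3B at 2.19 ± 0.09, and their sum was 9070 to 9778 CPM in the controls and 10813 to 11348 with shBAP1. Of 8 fibroblast markers 5 fell and 1 rose, while their sum was higher (1037 to 1079 CPM, then 1175 to 1274). Of 4 endothelial markers 1 rose, and of 3 leukocyte markers 2 rose and 1 fell (summed 1.16 to 1.58 CPM, then 3.37 to 3.48).

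All 10 licensing genes rose again, in this line led by CDC6, the loader of the MCM ring, with 46.0 and 42.1 CPM in the controls and 85.8 and 89.1 CPM with shBAP1 (0.99 ± 0.06, adjusted p = 1.98e-07). ORC6, MCM3 and MCM4 rose by 0.94, 0.90 and 0.87. MCM7 was the smallest change of the ring (0.14 ± 0.05, adjusted p = 0.0266), at 334 and 334 CPM against 369 and 367 CPM, and this call was lost when any of the 4 MSTO-211H libraries was left out. MCM10 led the helicase activation genes, from 17.4 and 17.5 CPM to 31.2 and 29.2 CPM (0.79 ± 0.07, adjusted p = 3.18e-06). GINS1 differed from the other 3 GINS subunits with a value of -0.18 ± 0.06 (28.99 and 28.68 CPM against 24.7 and 26.2 CPM, adjusted p = 0.0300). That fall was not called under RLE scaling, DESeq2, no filter, or without any of the 4 MSTO-211H libraries.

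Of the polymerase genes POLD3, POLE, POLD1 and POLA1 rose. POLD3, a subunit of polymerase delta, went from 26.0 and 26.4 CPM to 35.3 and 39.1 CPM (0.51 ± 0.07, adjusted p = 8.93e-05). PRIM1 fell from 20.4 and 20.3 CPM to 14.3 and 12.4 CPM (-0.62 ± 0.09, adjusted p = 0.000214), and this call was kept under every alternative tried. POLA2 and POLE2 did not pass (0.24 ± 0.15 and 0.06 ± 0.12). PCNA rose from 76.5 and 73.4 CPM to 128 and 120 CPM (0.73 ± 0.06, adjusted p = 1.92e-06), and RFC2 and RFC3 rose by 0.39 and 0.47, while RFC4 and RFC5 were at 0.00 ± 0.06 and 0.06 ± 0.06.

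FEN1 (ENSG00000168496, 11:61792911-61797238) had the highest fold change of the 39 genes in MSTO-211H. Its level was 30.2 and 27.7 CPM with the random hairpin and 67.0 and 70.3 CPM with shBAP1, 2.37-fold higher (1.25 ± 0.07, adjusted p = 1.83e-07). RRM1 rose (0.34 ± 0.05) and RRM2 (ENSG00000171848, 2:10120698-10211725) fell, as in H2810, here from 127 and 122 CPM to 89.5 and 91.1 CPM (-0.47 ± 0.05, adjusted p = 1.92e-05). E2F1 rose from 13.3 and 11.8 CPM to 29.9 and 28.2 CPM (1.21 ± 0.08, adjusted p = 6.81e-07) and E2F2 by 0.78 ± 0.12. CCNE1 rose from 7.32 and 5.88 CPM to 13.0 and 11.3 CPM (0.88 ± 0.14, adjusted p = 0.000364), the opposite of its course in H2810. UHRF1 rose from 43.97 and 39.48 CPM to 61.1 and 63.9 CPM (0.58 ± 0.06).

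The calls of both lines, which share no library, overlapped in 28 rising genes, 84.8% of the 33 in H2810 and 93.3% of the 30 in MSTO-211H. Over all genes, 48.7% of those higher in H2810 were also higher in MSTO-211H, and 50.7% the other way round. PRIM1 and RRM2 were lower in both. Yet the size of the response differed between the lines for 17 of the 39 genes (interaction term, 27.7% of all genes called, 11.2% higher and 16.5% lower in MSTO-211H): 7 were higher and 10 lower in MSTO-211H. A share of 17 in 39 should be read against that background. CCNE1 differed most, with a difference of 1.78 ± 0.22 on the log2 scale (adjusted p = 0.000158), from a fall in one line and a rise in the other. FEN1 rose more in MSTO-211H by 0.59 ± 0.10, E2F2 by 0.56 ± 0.16 and E2F1 by 0.53 ± 0.11. UHRF1 (-0.60 ± 0.10) and RFC2 (-0.54 ± 0.08) rose less there, as did MCM7 (-0.46 ± 0.07) and POLA1 (-0.38 ± 0.11). RFC4, which rose in H2810 only, differed by -0.40 ± 0.08. GINS1 differed by -0.47 ± 0.08, RRM2 by -0.26 ± 0.07, CDC6 by 0.31 ± 0.08 and POLD3 by 0.34 ± 0.09. Of the 17 calls 8 were kept under every alternative, and the number higher in MSTO-211H ranged from 4 to 10 and the number lower from 5 to 10 as single libraries were left out.

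Genes of the same pathway outside the 39 moved in part alike. Of 42 other replication genes tested, 36 rose and 1 fell in H2810, and 22 rose and 3 fell in MSTO-211H. The single fall in H2810 became 3 without shBAP1 replicate 2, and the 3 falls in MSTO-211H became 1 without random hairpin replicate 1 or shBAP1 replicate 2. CHAF1A, a subunit of the chromatin assembly factor that follows the fork, rose by 0.84 ± 0.06 and 0.75 ± 0.06. RFC1, the large clamp loader subunit, rose by 0.93 ± 0.05 in H2810. In MSTO-211H RFC1 was at 167 and 173 CPM with the random hairpin and 184 and 181 CPM with shBAP1, and its response differed between the lines by -0.83 ± 0.07 (adjusted p = 7.72e-06). Of 33 other genes of G1/S control, 10 rose and 8 fell in H2810 and 12 rose and 9 fell in MSTO-211H. Over all genes 22.5% were higher and 23.3% lower in H2810, and 21.7% and 24.5% in MSTO-211H. The falls among the G1/S control genes were near these shares. The 8 falls in H2810 became 4 without random hairpin replicate 2 and 5 without shBAP1 replicate 1. CDC25A, the phosphatase that activates the cyclin E kinase, was at 21.1 and 21.5 CPM with the random hairpin and 48.9 and 46.5 CPM with shBAP1 in H2810 (1.16 ± 0.06), and rose by 1.20 ± 0.05 in MSTO-211H. TFDP1, the partner that E2F1 and E2F2 need to bind DNA, fell from 92.1 and 100.3 CPM to 45.7 and 47.2 CPM in H2810 (-1.05 ± 0.06) and from 158 and 162 CPM to 71.5 and 70.6 CPM in MSTO-211H (-1.17 ± 0.05).

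Genes of mitosis did not follow the replication genes in both lines. Of 29 mitosis genes tested, 22 rose and 1 fell with shBAP1 in H2810, and 2 rose and 17 fell in MSTO-211H. Over all genes 22.5% were higher and 23.3% lower in H2810, and 21.7% and 24.5% in MSTO-211H. The medians of the mitosis genes were 0.37 and -0.25, beside -0.03 and -0.02 for all genes. Under RLE scaling 13 fell in MSTO-211H, and 12 to 15 fell as single libraries were left out. NUF2, a kinetochore subunit, went from 12.7 and 14.0 CPM to 29.2 and 31.3 CPM in H2810 (1.18 ± 0.07) and from 36.5 and 37.7 CPM to 24.6 and 25.4 CPM in MSTO-211H (-0.57 ± 0.07). The response of 26 of the 29 was lower in MSTO-211H than in H2810 by the interaction term, against 16.5% of all genes.

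**Figure D2:**
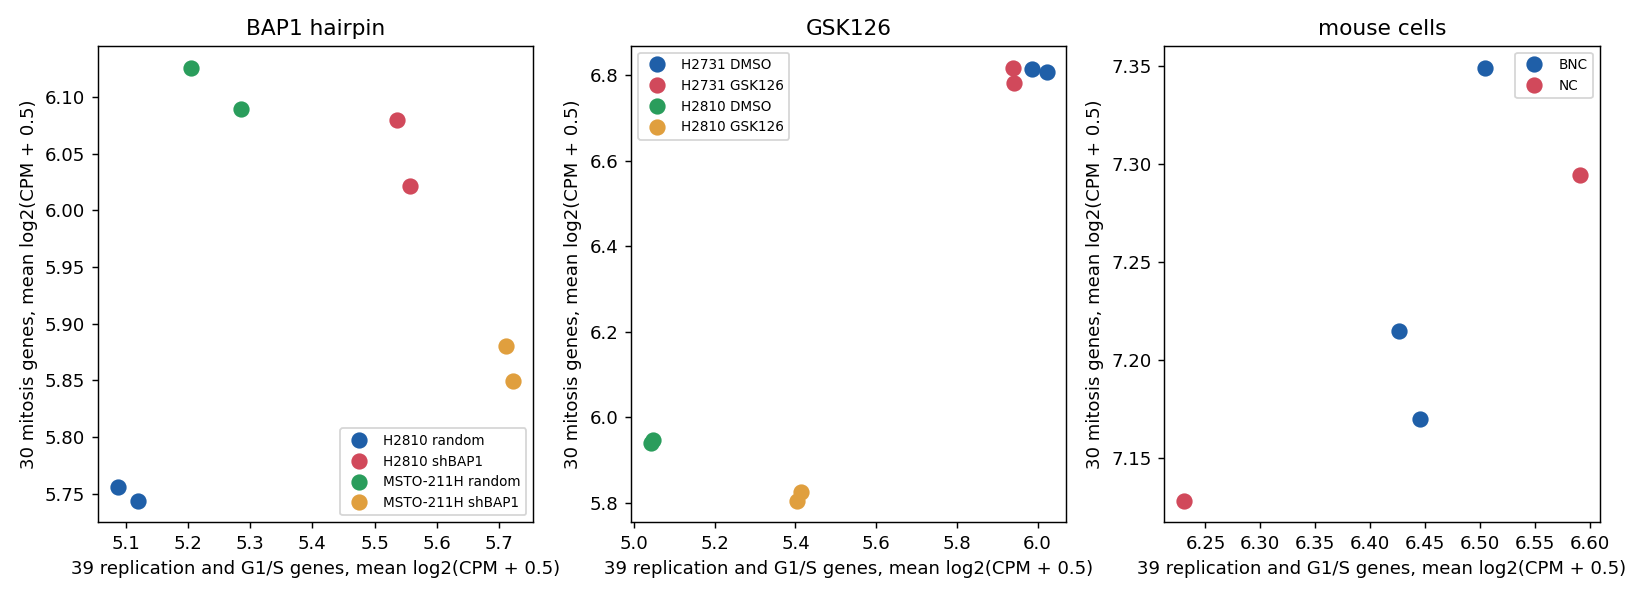
Mean log2(CPM + 0.5) of the 39 replication and G1/S genes (x axis, log2 units) against that of 30 mitosis genes (y axis, log2 units), 1 point per library, in the hairpin, GSK126 and mouse experiments, each with its own axis ranges. With shBAP1 both means were higher in H2810, while in MSTO-211H the replication mean was higher and the mitosis mean lower; GSK126 moved H2810 the same way as the latter, and the mouse points of both groups interleave.

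The next question was the effect of the EZH2 inhibitor. In H2810, GSK126 was followed by a rise of 31 of the 39 genes, none fell and 8 did not pass the test. Over all 15999 genes 29.3% were called, 16.3% higher and 12.9% lower, and the median of the 39 was 0.35 against 0.00 for all genes. Their share of counts went from 0.178% and 0.176% with DMSO to 0.229% and 0.228% with GSK126. Beside this, 4 of 12 mesothelial markers fell and 1 rose (KRT18 -0.57 ± 0.04, CALB2 -0.50 ± 0.04; summed 3382 to 3557 CPM with DMSO, 2517 to 2533 with GSK126). Of 5 endothelial markers 4 rose (summed 77.6 to 78.8 CPM, then 93.4 to 95.2), with CDH5 and CLDN5 at 0 in both groups. Of 7 fibroblast markers 4 rose and 3 fell (summed 9549 to 10697 CPM, then 8743 to 9018).

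CCNE2, the gene of cyclin E2, changed most, from 10.4 and 10.8 CPM with DMSO to 23.2 and 23.1 CPM with GSK126, 2.18-fold higher (1.12 ± 0.09, adjusted p = 7.65e-09). CCNE1 rose as well, from 6.45 and 6.25 CPM to 10.0 and 9.39 CPM (0.61 ± 0.12), along with E2F2 (0.61 ± 0.09) and E2F1 (0.47 ± 0.06). Thus all 4 regulators were higher with the drug, whereas CCNE1 was lower with shBAP1 in the same line. UHRF1 was at 17.1 and 19.2 CPM with DMSO and 29.2 and 32.3 CPM with GSK126 (0.75 ± 0.07, adjusted p = 1.18e-07).

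Of the licensing genes 8 of 10 rose. CDC6 led them, from 50.2 and 50.1 CPM to 83.2 and 82.5 CPM (0.72 ± 0.04, adjusted p = 2.59e-10), ORC1 rose by 0.67 ± 0.08, and the 6 MCM subunits by 0.24 to 0.52. CDT1 and ORC6 did not pass, at 0.08 ± 0.07 and 0.00 ± 0.09. MCM10 was at 21.6 and 21.2 CPM with DMSO and 31.4 and 32.7 CPM with GSK126 (0.58 ± 0.07, adjusted p = 1.13e-06), and GINS2, GINS4, GINS1 and CDC45 rose too.

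Of the genes of DNA synthesis, POLA2 went from 4.05 and 5.37 CPM to 7.58 and 6.29 CPM (0.54 ± 0.14, adjusted p = 0.00749), but its replicates were far apart and the call was lost without DMSO replicate 1 or GSK126 replicate 1. RFC3 was at 18.95 and 19.91 CPM with DMSO and 28.2 and 26.8 CPM with GSK126 (0.50 ± 0.08, adjusted p = 6.52e-05). FEN1 went from 60.7 and 59.6 CPM to 91.0 and 91.4 CPM (0.60 ± 0.05, adjusted p = 1.80e-08). The catalytic subunit of polymerase epsilon, POLE, was at 0.01 ± 0.05.

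Nucleotide supply stood apart: RRM2 was the only 1 of its 4 genes to pass, from 113 and 111 CPM to 144 and 135 CPM (0.32 ± 0.04, adjusted p = 6.27e-06). RRM1, TYMS and DUT were at 0.09 ± 0.04, -0.04 ± 0.04 and -0.07 ± 0.05. RRM2 and PRIM1 (0.32 ± 0.11) therefore rose with GSK126 where both fell with shBAP1, although PRIM1 was not called with DESeq2, with limma-voom, or without any of the 4 H2810 libraries. Of the genes that rose in H2810, 26 were shared by shBAP1 and GSK126, 78.8% of the 33 and 83.9% of the 31, in experiments with separate controls. Over all genes tested in both, 19.9% of those higher with shBAP1 were higher with GSK126, and 28.1% the other way round.

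**Figure D3:**
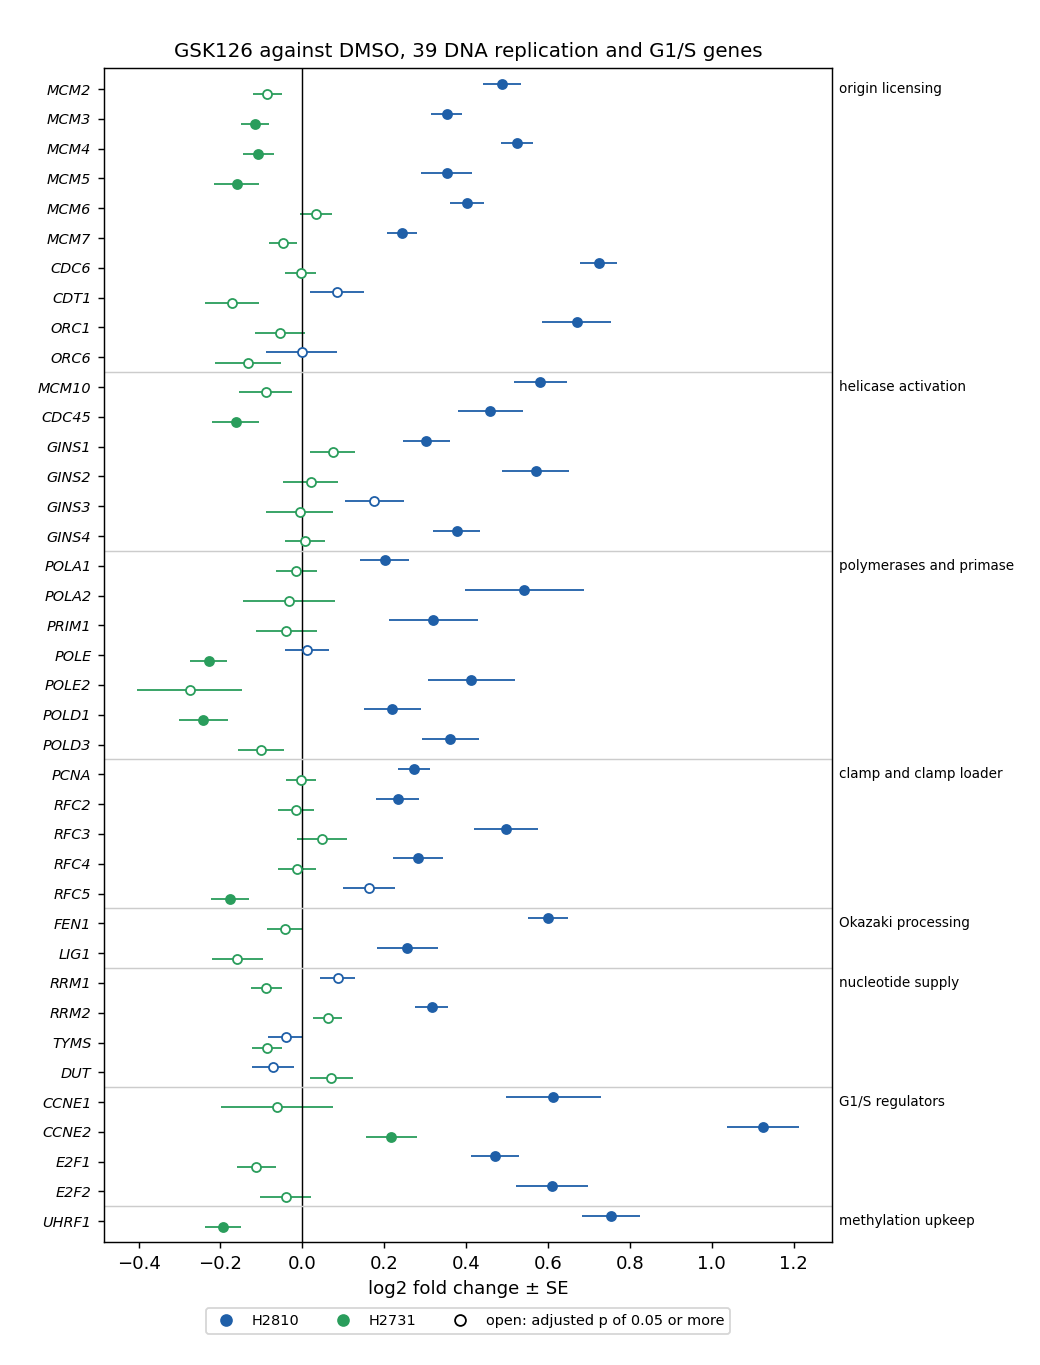
Log2 fold change of GSK126 against DMSO (x axis, log2 units) for each of the 39 genes (y axis, grouped by role) in H2810 (blue) and H2731 (green). Points are edgeR estimates from 2 libraries a group, bars are ± 1 SE, and open points did not pass an adjusted p of 0.05. In H2810 most points lie right of 0 with CCNE2 at 1.12, and in H2731 all lie between -0.28 and 0.22.

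In H2731, labelled BAP1 mutated, GSK126 left these genes near their DMSO level. Here 1 rose, 8 fell and 30 did not pass, against 24.7% of all genes called (13.8% higher, 10.9% lower), and the median was -0.05. A share of 9 in 39 is near that background with both directions pooled, but 8 of the 9 were falls, against 10.9% lower of all genes. Of the 39 values 31 were negative. The 8 falls became 5 without DMSO replicate 1, 4 without GSK126 replicate 2 and 2 with DESeq2. CCNE2 was the gene that rose, from 34.4 and 31.5 CPM to 36.5 and 40.1 CPM (0.22 ± 0.06, adjusted p = 0.0149). UHRF1 fell from 142 and 139 CPM to 123 and 123 CPM (-0.19 ± 0.04, adjusted p = 0.00298), POLD1 from 44.8 and 43.3 CPM to 39.4 and 35.2 CPM (-0.24 ± 0.06), and POLE by 0.23 ± 0.05. RFC5, CDC45, MCM5, MCM3 and MCM4 fell by 0.11 to 0.18. UHRF1 and POLE were called under every alternative. The call of CCNE2 was lost with DESeq2 and without DMSO replicate 2 or GSK126 replicate 2. Among the markers, 5 of 12 mesothelial ones fell and 2 rose (summed 7400 to 8020 CPM with DMSO, 6254 to 6353 with GSK126). Of 4 leukocyte markers 2 fell, of 7 fibroblast markers 1 fell, and of 5 endothelial markers 1 rose.

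The difference of the drug responses was tested directly. It was lower in H2731 for 31 of the 39 genes and higher for none, where 14.7% of all genes were called (8.08% higher, 6.66% lower). The median difference was -0.45 against 0.00 for all genes. UHRF1 differed by -0.95 ± 0.08 (adjusted p = 1.30e-07), CCNE2 by -0.91 ± 0.11 (adjusted p = 5.78e-06) and CDC6 by -0.73 ± 0.06 (adjusted p = 3.21e-08). POLE2, MCM10, FEN1, RFC3 and RRM2 differed by -0.69 ± 0.17, -0.67 ± 0.09, -0.64 ± 0.07, -0.45 ± 0.10 and -0.25 ± 0.05. Of the 31 calls 22 were kept under every alternative, and 23 were made with DESeq2.

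Other replication genes went along in part: 15 rose and 2 fell of 42 with GSK126 in H2810. The 2 falls became 0 without DMSO replicate 1 or either GSK126 library, and 1 without DMSO replicate 2. In H2731 14 fell and none rose, and the falls were 8 without DMSO replicate 1, 7 without GSK126 replicate 1 and 5 without GSK126 replicate 2. EXO1, an exonuclease of repair and replication, rose by 0.66 ± 0.08 and CHAF1A by 0.44 ± 0.06 in H2810. Of 32 other genes of G1/S control 13 rose and 5 fell in H2810, and 3 rose and 4 fell in H2731. The falls became 3 in H2810 and 2 in H2731 without the respective GSK126 replicate 2. Over all genes 16.3% were higher and 12.9% lower in H2810, and 13.8% and 10.9% in H2731. For the G1/S control genes the falls in H2810 and both counts in H2731 were near these shares. CCND1, the gene of cyclin D1, was at 127 and 133 CPM with DMSO and 179 and 184 CPM with GSK126 in H2810 (0.48 ± 0.04), and E2F7, a repressor among the E2F factors, rose by 0.85 ± 0.10 there and by 0.31 ± 0.06 in H2731. CDKN1A, an inhibitor of the cyclin E kinase, rose in H2731 by 0.38 ± 0.05. In H2810 CDKN1A was higher with the drug too, at 45.0 and 46.9 CPM with DMSO and 56.7 and 59.9 CPM with GSK126. Mitosis genes fell in H2810, 14 of 29 against 1 that rose (median -0.13), and 9 to 13 fell as single libraries were left out (9 without GSK126 replicate 2). CCNB2, the gene of cyclin B2, was at 46.1 and 45.8 CPM with DMSO and 34.7 and 35.2 CPM with GSK126 (-0.40 ± 0.05). In H2731 2 of the 29 fell and none rose, and none fell without GSK126 replicate 1 or 2.

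**Figure D4:**
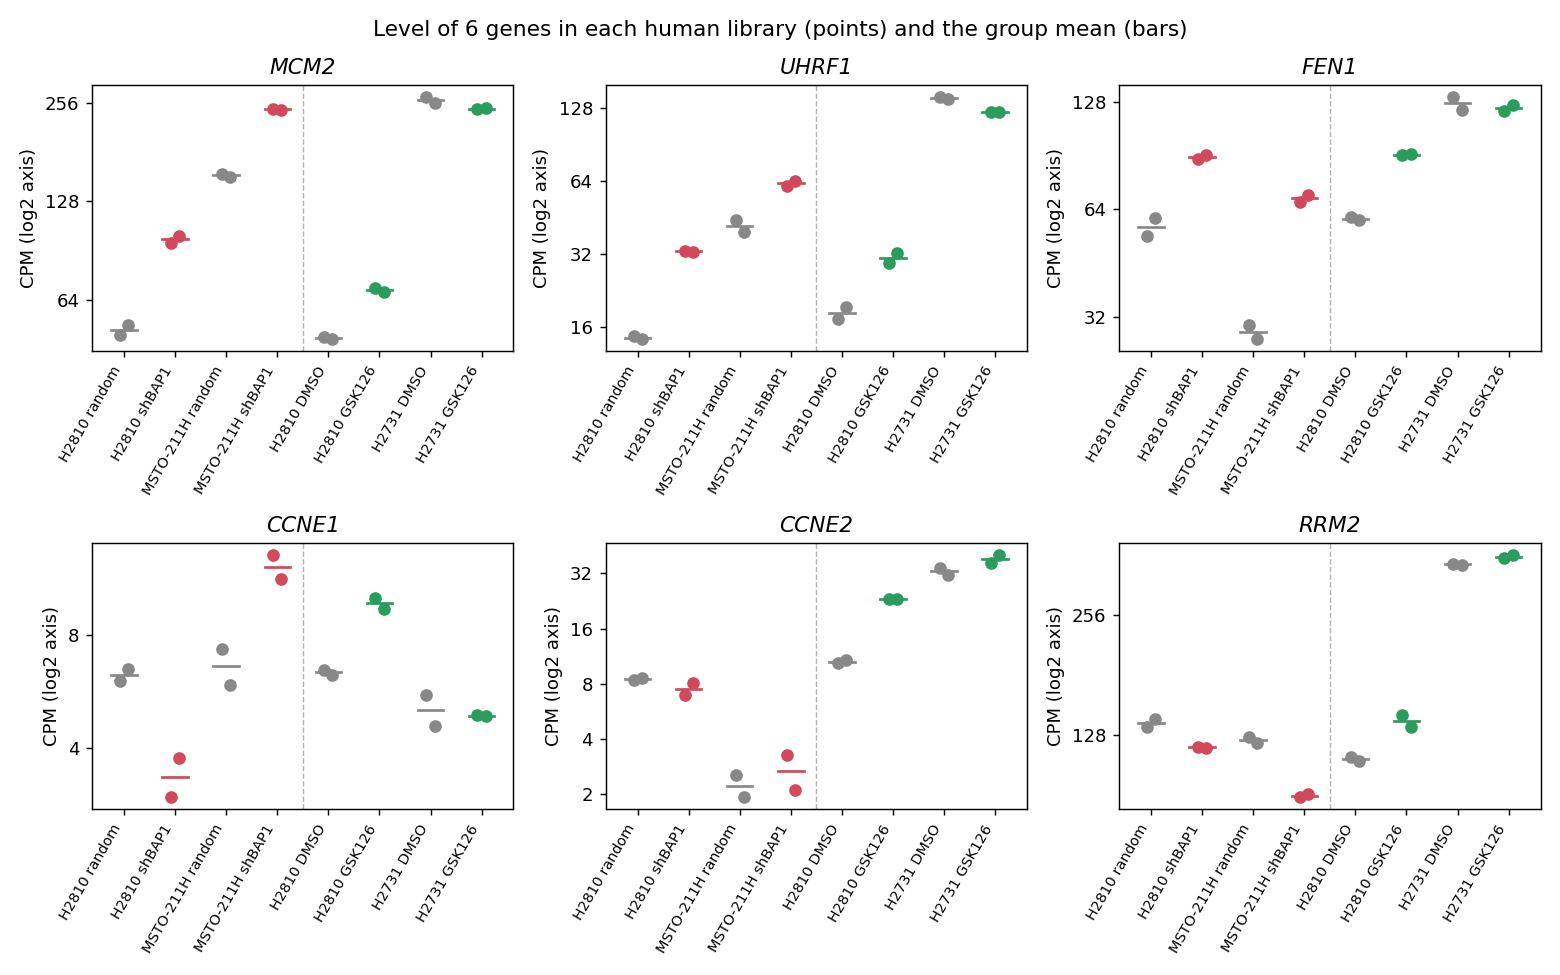
CPM on a log2 axis (y) of MCM2, UHRF1, FEN1, CCNE1, CCNE2 and RRM2 in each of the 16 human libraries (points) by group (x), with bars at the group mean; grey is the control, red shBAP1 and green GSK126, and a dashed line divides the separately scaled experiments. UHRF1 rises from about 14.6 to 32.9 CPM with shBAP1 in H2810, while CCNE1 moves down in H2810 and up in MSTO-211H.

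The untreated lines were compared next. Under DMSO 34 of the 39 genes were higher and 4 lower in H2731 than in H2810, where 82.2% of all genes were called (41.5% higher, 40.7% lower). The median was 1.08 against 0.01 for all genes. The 39 genes held 0.416% and 0.412% of counts in H2731 and 0.178% and 0.176% in H2810. UHRF1 was at 142 and 139 CPM against 17.1 and 19.2 CPM, 7.69-fold higher (2.94 ± 0.06), and MCM2 at 267 and 256 CPM against 49.1 and 48.4 CPM (2.42 ± 0.04). MCM7, CCNE2, RRM2, RFC5, CDC45, PRIM1 and FEN1 were higher by 1.88, 1.64, 1.62, 1.57, 1.48, 1.43 and 1.08. GINS3 (-0.52 ± 0.08), POLE2 (-0.40 ± 0.12), CCNE1 (-0.32 ± 0.13) and DUT (-0.26 ± 0.05), the enzyme that removes dUTP, were lower, and CDT1 was at 0.00 ± 0.07. The call of CCNE1 was lost with DESeq2 and without H2731 DMSO replicate 2 or either H2810 DMSO library. The other lists were shifted the same way, with 39 of 42 other replication genes and 26 of 29 mitosis genes higher.

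MSTO-211H and H2810 with the random hairpin showed no common direction. Here 17 genes were higher and 17 lower in MSTO-211H, near the 79.7% of all genes called (39% higher, 40.7% lower), and the median was 0.03. MCM2 (1.58 ± 0.05), UHRF1 (1.53 ± 0.07), RFC3 (1.32 ± 0.06), LIG1 (1.20 ± 0.06), TYMS (1.11 ± 0.05) and POLD1 (1.08 ± 0.06) were higher in MSTO-211H. The regulators CCNE2, E2F2 and E2F1 were lower, by -1.93 ± 0.20, -1.23 ± 0.12 and -1.11 ± 0.08, and so were POLA2 (-1.05 ± 0.14) and FEN1 (-0.98 ± 0.07). CCNE1 did not differ beyond its error (0.08 ± 0.15).

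The mouse cells showed no called change. With 3 BNC and 2 NC libraries none of the 39 genes passed the test, nor did any of 12225 genes (0% called) with edgeR. At an unadjusted p under 0.05 stood 823 genes, among them 1 of the 39, Cdt1. Cdt1 stood at 95.6, 116 and 114 CPM in BNC and at 80.4 and 76.7 CPM in NC (log2 fold change 0.47 ± 0.18, edgeR adjusted p = 0.722). DESeq2 called 302 genes, none of them among the 39, and limma-voom called 0. The median of the 39 was 0.12 against 0.03 for all genes, with single values from -0.71 (Pole2) to 0.47. Libraries of 1 group were far apart: Ccne1 stood at 13.2, 11.9 and 46.1 CPM in BNC replicates 4, 5 and 6 and at 29.5 and 24.4 CPM in NC replicates 4 and 5. BNC replicates 4 and 5 lay close together and replicate 6 apart from them, and the groups overlapped. In simulated counts of this design no change of 1 on the log2 scale was called, with each gene's spread set by its level. Single genes can have another spread, so this does not fix the smallest change that could be called. The lack of calls does not show that these genes were unchanged. With BNC replicate 6 left out still none of the genes was called. An unadjusted edgeR p under 0.05 was then reached by 2624 of all genes, among them 4 of the 39.

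Some of these values could hold reads of a neighbouring gene, since no label or file header says whether strand was used in counting. Exons of other genes in GENCODE cover 47.9% of the exon bases of TYMS, 37.1% of CCNE2, 23.6% of MCM2, 23.4% of GINS4, 21.3% of POLA2 and 19.1% of PRIM1, and 0 to 14.5% of the others. Rows of processed pseudogenes of the 39 genes held at most 7 counts in any human library.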

How the data were processed

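Raw counts per Ensembl gene were deposited by the authors in 3 tables (5 mouse and 2 times 8 human libraries). The submitters' processing notes name TopHat, TopHat2 2.0.12, HTSeq and DESeq2 without their roles. Per the labels' protocols the libraries were poly-A selected and read single-end. The human build was not named, but gene positions matched GRCh38. Totals of 13693927 to 23217215 counts gave all 39 genes at least 40 counts.

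Each table was filtered with filterByExpr and scaled by TMM, and all its groups were fitted together with edgeR 4.0.16's quasi-likelihood test (R 4.3.3). P-values were adjusted by Benjamini-Hochberg over all genes tested (12225 mouse, 15999 drug and 15872 hairpin genes) and called below 0.05. SE is the log2 fold change divided by the root of F. TPM used 1 principal transcript length per gene. The 9 comparisons were repeated with DESeq2 1.42.0, limma-voom 3.58.1, RLE scaling, other filters, only the groups compared, a replicate block, and each library left out. In simulated counts, log2 changes of 0.5 were called for 96% of genes in GSK126 against DMSO in H2810 (15999 genes), 89% in shBAP1 against random in H2810 (15872 genes) and 0% in the mouse comparison (12225 genes). Replicates of every group differed by more than sampling noise (chi-square over degrees of freedom at least 2.09), so each library was kept as 1 sample. Same-numbered libraries had residual correlations from -0.214 to 0.27 in the mouse, -0.0271 to 0.225 in the drug and -0.139 to 0.204 in the hairpin table, and no pairing was assumed.

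The 39 genes and the other gene lists were chosen with earlier results of these data known. Values per library are given for genes with the largest called change in their role group or opposite calls within it, and up to 3 called genes with the smallest p were taken from every other list.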

Additional observations from a re-analysis of the deposited data

Results flagged for a closer look

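The response to GSK126 differed between the lines by a direct test (H2731 minus H2810, log2 scale, edgeR quasi-likelihood test with adjusted p) for these genes described by library. The differences were -0.95 ± 0.08 for UHRF1 (adjusted p = 1.30e-07), -0.91 ± 0.11 for CCNE2 (5.78e-06), -0.73 ± 0.06 for CDC6 (3.21e-08) and -0.69 ± 0.17 for POLE2 (0.00729). They were -0.67 ± 0.09 for MCM10 (3.29e-05), -0.64 ± 0.07 for FEN1 (9.43e-07), -0.45 ± 0.10 for RFC3 (0.00361) and -0.25 ± 0.05 for RRM2 (0.00276). In each the H2810 response was the higher.

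The response to shBAP1 also differed (MSTO-211H minus H2810, the same test). It was higher in MSTO-211H for CCNE1 by 1.78 ± 0.22 (adjusted p = 0.000158), FEN1 by 0.59 ± 0.10 (0.000972), POLD3 by 0.34 ± 0.09 (0.0176) and CDC6 by 0.31 ± 0.08 (0.0134). The difference was -0.60 ± 0.10 for UHRF1 (0.000821), -0.54 ± 0.08 for RFC2 (0.000367), -0.47 ± 0.08 for GINS1 (0.00145), -0.46 ± 0.07 for MCM7 (0.000351), -0.38 ± 0.11 for POLA1 (0.0205) and -0.26 ± 0.07 for RRM2 (0.0153).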

How the results depend on the processing

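No called gene of the 39 changed sign under any alternative run. The counts that moved by more than 1.5 times were small ones. With GSK126 in H2731 the 1 rise became 0 with DESeq2, and the 8 falls became 2 with DESeq2 and 5 with no filter. As single libraries were left out, rises ranged from 0 to 1 (0 without DMSO replicate 2 or GSK126 replicate 2) and falls from 4 to 7 (5 without DMSO replicate 1, 4 without GSK126 replicate 2). For the difference in the shBAP1 response, the 7 genes higher in MSTO-211H became 4 with no filter, and the 10 lower became 6 with DESeq2. Leaving out single libraries gave 4 to 10 higher (4 without H2810 random 2, MSTO-211H random 2 or MSTO-211H shBAP1 2) and 5 to 10 lower (6 without MSTO-211H random 1 or shBAP1 1, 5 without shBAP1 2). The 3 falls with shBAP1 in H2810 became 1 with no filter, and 1 to 3 as libraries were left out (1 without random hairpin 2). The large counts held: 31 to 35 rises with shBAP1 in H2810, 28 to 29 in MSTO-211H and 26 to 28 with GSK126 in H2810 as libraries were left out. With a replicate block the counts higher and lower were 31 and 0 for GSK126 in H2810, 1 and 9 in H2731, 0 and 31 for their difference, 34 and 4 between these lines, 33 and 3 for shBAP1 in H2810, 30 and 3 in MSTO-211H, 7 and 10 for their difference, 17 and 17 between those lines, and 0 and 0 in the mouse. Fitting only the groups compared was not run for the differences of responses and the mouse, where it equals the fit used. RLE scaling moved the median of all genes by at most 0.024. The lowest count of the 39 genes was 40, for CCNE2 in the hairpin table, where its SE with shBAP1 was 0.24 in MSTO-211H.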
